A study of Mus musculus with 4 samples.

Results

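The enzymes described here remove superoxide and peroxides: the superoxide dismutases Sod1, Sod2 and Sod3, catalase (Cat), the glutathione peroxidases Gpx1, Gpx3 and Gpx4, and the peroxiredoxins Prdx1, Prdx2 and Prdx6. They were found as the probe sets whose platform annotation names exactly 1 of these 10 genes, which gave 15 of 22626 probe sets, for 8 of the 10 genes. All 5 probe sets that name Prdx1 also name the gene Gm21399 and were left out, and no probe set of the annotation used here names Prdx6. Sod2 had 3 probe sets, Sod1, Sod3, Cat, Gpx4 and Prdx2 had 2 each, and Gpx1 and Gpx3 had 1 each.

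RNA of whole aorta from female mice aged 6 weeks was measured on 1-colour Affymetrix arrays in 4 groups, C3H/HeJ mice (C3H below) on Western diet, C3H mice on chow, C57BL/6 mice on Western diet and C57BL/6 mice on chow. Every group lacked apolipoprotein E (apoE-/-), the controls included, an alteration that raises blood lipids on either diet. Mice were weaned to chow at 3 weeks, and those of the Western groups changed diet at 4 weeks and ate it for 2 weeks. Each group had 1 array, and the sources used here do not give the number of animals behind an array. C3H/HeJ mice also carry an inactive Tlr4, the receptor for bacterial endotoxin.

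Superoxide forms when an electron leaks to oxygen from the respiratory chain or is passed to it by NADPH oxidases. Superoxide dismutases turn it into hydrogen peroxide: Sod1 with copper and zinc in the cytosol, Sod2 with manganese in mitochondria, and Sod3 outside cells, where it binds the heparan sulfate of the vessel wall. Catalase, mostly in peroxisomes, and the glutathione peroxidases and peroxiredoxins then reduce the peroxide to water. In the artery wall these enzymes are known for preserving nitric oxide, which superoxide destroys, and for limiting the oxidation of lipoproteins.

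Promoter stretches of 5 members are shown because their array patterns, given below, fall into different groups. The bright set of Sod1 hardly differed after normalization, the brightest set of Sod2 was higher in C3H and Gpx1 was lower. Gpx3 and the brighter set of Gpx4 were highest on C57BL/6 Western and C3H chow. Each line gives the 150 bases before an annotated start site, 5′ to 3′ on the plus strand, from RefSeq on GRCm38.p6, an assembly of C57BL/6J and not of C3H. Positions are chr16:90220612-90220761 for Sod1, chr17:13007689-13007838 for Sod2, chr9:108338930-108339079 for Gpx1, chr11:54902704-54902853 for Gpx3 and chr10:80053415-80053564 for the second of 4 start sites of Gpx4. Capitals mark matches on either strand to the GC box GGGCGG, to the antioxidant response element core TGACNNNGC bound by NRF2, or to the TATA box TATAAA.
Sod1: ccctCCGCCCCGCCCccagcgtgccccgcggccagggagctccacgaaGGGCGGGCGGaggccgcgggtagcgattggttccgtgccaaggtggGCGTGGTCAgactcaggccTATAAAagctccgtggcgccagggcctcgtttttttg
Sod2: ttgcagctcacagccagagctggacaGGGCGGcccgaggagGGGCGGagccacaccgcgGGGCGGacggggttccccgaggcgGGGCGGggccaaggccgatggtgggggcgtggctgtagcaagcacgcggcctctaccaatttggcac
Gpx1: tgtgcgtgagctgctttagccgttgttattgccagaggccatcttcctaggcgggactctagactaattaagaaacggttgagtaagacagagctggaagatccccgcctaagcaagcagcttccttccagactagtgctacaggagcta
Gpx3: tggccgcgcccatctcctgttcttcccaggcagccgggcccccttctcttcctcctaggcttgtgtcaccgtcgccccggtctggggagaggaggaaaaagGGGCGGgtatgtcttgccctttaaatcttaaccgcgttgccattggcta
Gpx4: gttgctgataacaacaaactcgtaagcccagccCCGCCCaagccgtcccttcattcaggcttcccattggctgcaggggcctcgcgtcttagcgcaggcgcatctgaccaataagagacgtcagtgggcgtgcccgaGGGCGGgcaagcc

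Of the 10 genes, 8 had an entry in the promoter table. In the 250 bases before the start, the GC box stood in 6 of these, against 32.7% of 32851 windows of all genes. It stood 4 times each in Sod1 and Sod2 (the matches in Sod1 overlap in pairs) and not in Gpx1. A member counts with a match at any of its start sites, of which Gpx4 has 4, while the shares are over single windows. The antioxidant response element core stood in Sod1, from 56 to 48 bases before the start, and in Prdx1, against 10.2% of all windows. The TATA box stood in the same genes, against 12.4% of all windows. The AP-1 site TGACTCA was searched too and stood in Prdx1, with 2 matches, 1 of which overlaps the antioxidant response element core, against 4.46% of all windows. These are matches of letters in a reference sequence and describe no binding.

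The C3H chow array stood apart from the others. Its correlations with them over all probe sets were 0.705 to 0.726, where pairs of the other arrays reached 0.746 to 0.761, and its actin 3′/5′ ratio was 2.28, against 1.63 to 1.83. It enters the strain comparison on chow and the diet comparison in C3H, and the other strain and diet comparisons are free of it. Values are deposited linear intensities after quantile normalization. Signals at or under 83.6, the 40th percentile over the 4 arrays, count as too dim to measure, and this limit is called the floor. Apoe lay under it on every array, with signals of 55.5 and 16.1 in C3H on Western diet and chow and of 65.3 and 19.1 in C57BL/6 on Western diet and chow. Smooth muscle genes of the aortic wall were present, with 11 of 11 markers above the floor on all arrays, as were endothelial genes, with 11 of 12. So were brown adipocyte markers, with 7 of 7 that have a probe set, and heart muscle markers, with 11 of 12 above the floor on the C57BL/6 arrays and 5 of 12 on the C3H arrays. In such whole tissue, fewer cells of a type and less RNA per cell cannot be told apart.

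No group has a replicate, so folds within a pair of arrays carry no test. For scale, 1675 genes had several probe sets above the floor. The log2 differences of such sets scattered around their gene's mean with an SD of 0.51 and 0.60 for strain on Western diet and chow, and of 0.57 and 0.48 for diet in C3H and C57BL/6. An additive limma fit with terms for strain and diet over 14915 probe sets gave the errors quoted below as SE. Its only residual is the strain-by-diet interaction with 1 degree of freedom, and the prior estimate from all probe sets carries most of the weight in the variance behind its p-values. Levels of different probe sets are not comparable.

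Among the dismutases, Sod1 differed least between arrays. Its bright probe set 1451124_at gave signals of 17604 and 20521 in C3H on Western diet and chow, and of 20288 and 19613 in C57BL/6 on Western diet and chow. The highest of the 4 was 1.17 times the lowest, and both strain comparisons were within 1.15-fold. The spread was wider under other scalings, and deposited signals ran from 16418 on C3H Western to 21854 on C3H chow. Western diet against chow in C3H was log2 -0.22, against -0.41 with the deposited values, -0.26 with equal array medians and -0.40 with cyclic loess. The strain term was log2 -0.07 ± 0.54 (SE), with a limma adjusted p of 0.998. Its further probe set 1435304_at lay just above the floor, with signals of 146.5 and 117.7 in C3H on Western diet and chow, against 107.0 and 112.1 in C57BL/6. There, C3H was 1.37-fold higher on Western diet and 1.05-fold higher on chow.

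Sod2, the mitochondrial enzyme, was higher in C3H on both diets by its brightest probe set. Set 1448610_a_at gave 7076 and 6909 in C3H on Western diet and chow, against 4646 and 4282 in C57BL/6 on Western diet and chow. Both C3H arrays stood above both C57BL/6 arrays, and within a strain the diets differed by at most 1.09-fold. C3H was 1.52-fold higher on Western diet and 1.61-fold higher on chow, with a strain term of log2 0.65 ± 0.35 (SE) that did not pass (limma adjusted p = 0.847). On Western diet the fold was under 1.5 with the deposited values (log2 0.52), equal array medians (log2 0.46) and cyclic loess (log2 0.57).

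The other Sod2 probe sets only partly matched it. Set 1417193_at gave 3776 and 4613 in C3H on Western diet and chow, against 3593 and 2562 in C57BL/6. C3H was 1.05-fold higher on Western diet and 1.80-fold higher on chow, the comparison that includes the array standing apart. Set 1417194_at was dim, with 177.8 and 89.4 in C3H on Western diet and chow, against 140.9 and 150.6 in C57BL/6. It was 1.26-fold higher in C3H on Western diet and 1.68-fold lower on chow, where its C3H signal was next to the floor. In C3H it was 1.99-fold higher on Western diet than on chow.

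Sod3, the extracellular enzyme, differed most among the members that were measured on every array. Set 1417633_at gave 1820 and 1347 in C3H on Western diet and chow, against 1750 and 3207 in C57BL/6 on Western diet and chow. C57BL/6 chow was the highest array and C3H chow the lowest. On chow, C3H was 2.38-fold lower, while on Western diet it was 1.04-fold higher (log2 0.06, and log2 -0.06 with equal array medians). Western diet went with a 1.83-fold lower signal in C57BL/6 and a 1.35-fold higher one in C3H. The strain term was log2 -0.60 ± 0.33 (SE) with a limma adjusted p of 0.847, and the diet term log2 -0.22 ± 0.33 (SE).

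The further Sod3 set 1417634_at had the same directions for diet. Its signals were 683.6 and 410.4 in C3H on Western diet and chow, against 321.4 and 783.8 in C57BL/6 on Western diet and chow. On Western diet it was 1.67-fold higher in C3H and 2.44-fold lower in C57BL/6. Between the strains, C3H was 2.13-fold higher on Western diet and 1.91-fold lower on chow. The strain difference on Western diet was thus log2 0.06 by the brighter set and log2 1.09 by this one. The SD given above is for single sets around their gene's mean and is no direct scale for this gap.

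Many markers of the vessel wall moved with the brighter set of Sod3. Of 13 matrix and fibroblast markers, 12 had a probe set and 11 were above the floor on all arrays. Centred on each gene's own mean log2 signal, those 11 had a median of 0.12 and -0.92 in C3H on Western diet and chow, and -0.34 and 0.96 in C57BL/6 on Western diet and chow. The summed signal of the 12 was 52725 and 26634 in C3H, and 39006 and 105905 in C57BL/6. The 11 smooth muscle markers had medians of -0.06 and -0.45 in C3H on Western diet and chow, and -0.04 and 0.41 in C57BL/6. Not every marker followed the brighter Sod3 set. Of the smooth muscle markers, Des and Myocd were lowest on C3H Western and Synpo2 on C57BL/6 Western, where Smtn was highest. Of the matrix markers, Lum was highest on C3H Western, at 1356 against 1247 on C57BL/6 chow, and Col5a1 was lowest on C57BL/6 Western. Sod3 stood at -0.08 and -0.52 in C3H and at -0.14 and 0.74 in C57BL/6 by its brighter set. The further Sod3 set stood at 0.41 and -0.33 in C3H and at -0.68 and 0.60 in C57BL/6, so it was lowest on C57BL/6 Western. No marker of either list was at 0, and their part in the Sod3 result was not tested.

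**Figure D1:**
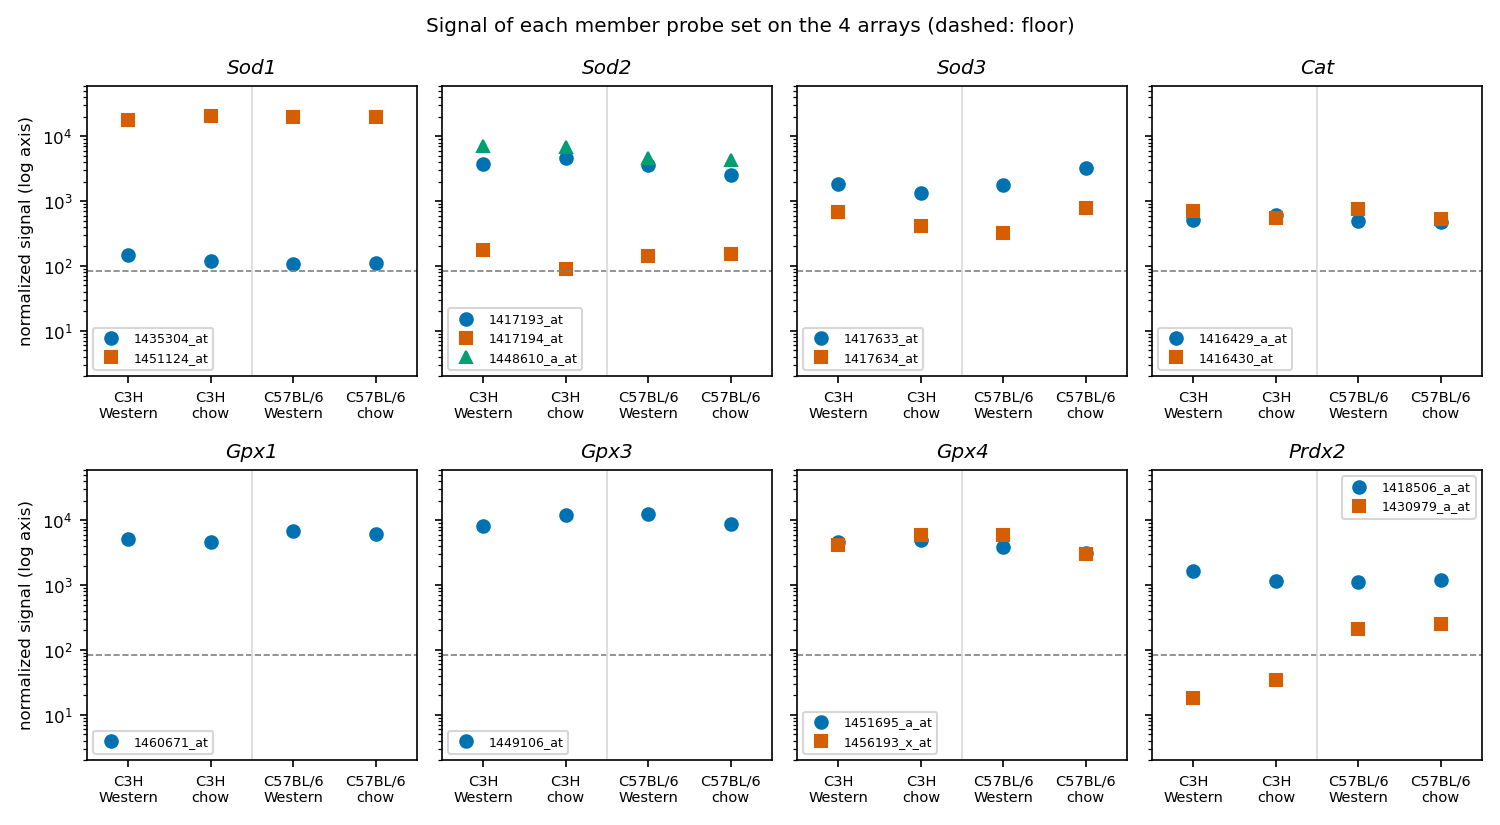
Normalized signal (log axis) of the 15 member probe sets on the 4 arrays, 1 panel per gene, with a symbol per probe set and the floor of 83.6 dashed. Sod1 is nearly level, Sod3 is highest on C57BL/6 chow, and Prdx2 set 1430979_a_at lies under the floor on both C3H arrays.

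Catalase (Cat) was close to level between the strains by its brighter set, with 1.08-fold on Western diet and 1.01-fold on chow. Set 1416430_at gave 704.4 and 541.3 in C3H on Western diet and chow, against 761.4 and 533.7 in C57BL/6 on Western diet and chow. Both Western arrays stood above both chow arrays, by 1.30-fold in C3H and 1.43-fold in C57BL/6. It had the lowest unadjusted p of any member for diet, 0.205 in limma, with a diet term of log2 0.45 ± 0.34 (SE). The further set 1416429_a_at did not share this. Its signals were 509.4 and 617.1 in C3H on Western diet and chow, against 502.2 and 470.2 in C57BL/6, so that the Western diet signal was 1.21-fold lower in C3H and 1.07-fold higher in C57BL/6.

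Among the glutathione peroxidases, Gpx1, the widespread cytosolic and mitochondrial form, was lower in C3H on both diets. Set 1460671_at gave 5084 and 4572 in C3H on Western diet and chow, against 6776 and 6204 in C57BL/6 on Western diet and chow. Both C3H arrays stood under both C57BL/6 arrays. C3H was 1.33-fold lower on Western diet and 1.36-fold lower on chow, with a strain term of log2 -0.43 ± 0.35 (SE) and a limma adjusted p of 0.860. Differences of this size or larger were found in 41.9% of all measured probe sets on Western diet and 53.3% on chow. Among the 1136 with signals above 1000 on every array the shares were 19.6% on Western diet and 47.4% on chow. Gpx1 was 1.11-fold higher on Western diet in C3H and 1.09-fold higher in C57BL/6. The sizes of these differences moved with the scaling, and the signs did not. On chow the strain difference was log2 -0.44, against -0.22 with the deposited values, -0.34 with equal array medians and -0.28 with cyclic loess. On Western diet it was log2 -0.41, against -0.50, -0.56 and -0.44 in the same order. The diet difference in C57BL/6 was log2 0.13, against 0.38, 0.47 and 0.23.

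Gpx3, the form secreted into plasma and made by kidney and fat among other tissues, had opposite diet differences in the strains. Set 1449106_at gave 8093 and 12169 in C3H on Western diet and chow, against 12733 and 8836 in C57BL/6 on Western diet and chow. It was 1.5-fold lower on Western diet in C3H (log2 -0.59, and -0.50 with equal array medians) and 1.44-fold higher in C57BL/6. Between the strains, C3H was 1.57-fold lower on Western diet and 1.38-fold higher on chow. The terms of the additive fit were correspondingly small, with log2 -0.10 ± 0.44 (SE) for strain and -0.03 ± 0.44 for diet.

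Gpx4, which reduces lipid peroxides within membranes and is known for blocking ferroptosis, was, like Gpx3, highest on C57BL/6 Western and C3H chow by its brighter set. Set 1456193_x_at gave 4182 and 5968 in C3H on Western diet and chow, against 5951 and 3050 in C57BL/6 on Western diet and chow. Western diet went with a 1.43-fold lower signal in C3H and a 1.95-fold higher one in C57BL/6. As large a difference between the diets in C57BL/6 was found in 8.76% of all measured probe sets, and in 2.90% of the 1136 bright ones. C3H was 1.42-fold lower on Western diet and 1.96-fold higher on chow. The suffix _x_at marks a probe set that may also bind other transcripts.

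The further Gpx4 set 1451695_a_at had a narrower spread. Its signals were 4646 and 5060 in C3H on Western diet and chow, against 3950 and 3110 in C57BL/6 on Western diet and chow. It was 1.09-fold lower on Western diet in C3H and 1.27-fold higher in C57BL/6. C3H stood above C57BL/6 on both diets here, by 1.18-fold on Western diet and 1.63-fold on chow, with a strain term of log2 0.47 ± 0.33 (SE) and a limma adjusted p of 0.847. On Western diet the strain difference of Gpx4 therefore changed its sign with the probe set.

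Fat markers measured on all arrays were highest on C3H chow, except Pparg, with 1581 there and 2273 on C57BL/6 Western. On C3H chow, Gpx3, both Gpx4 sets and the brighter pair of Sod2 sets stood above their means. Centred in the same way, the 7 brown adipocyte markers had median log2 signals of -0.31 and 1.0 in C3H on Western diet and chow, and of -0.19 and -0.45 in C57BL/6. Their summed signal was 57606 and 85053 in C3H, and 49898 and 43127 in C57BL/6. Of 12 general adipocyte markers 10 had a probe set, 9 were above the floor on all arrays, and Lep was under it on each. Those 9 had medians of -0.10 and 0.40 in C3H on Western diet and chow, and of 0.06 and -0.40 in C57BL/6. Gpx4 stood at -0.14 and 0.37 in C3H and at 0.37 and -0.60 in C57BL/6 by set 1456193_x_at. Gpx3 stood at -0.34 and 0.25 in C3H, and at 0.31 and -0.22 in C57BL/6. The Sod2 sets differed among themselves. Set 1417193_at stood at 0.09 and 0.37 in C3H and at 0.01 and -0.47 in C57BL/6. The brightest set stood at 0.34 and 0.31 in C3H, about level between the diets where brown fat markers were not, and the dim set was lowest on C3H chow, at -0.60. No marker was at 0, and the part of fat in these results was not tested.

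**Figure D2:**
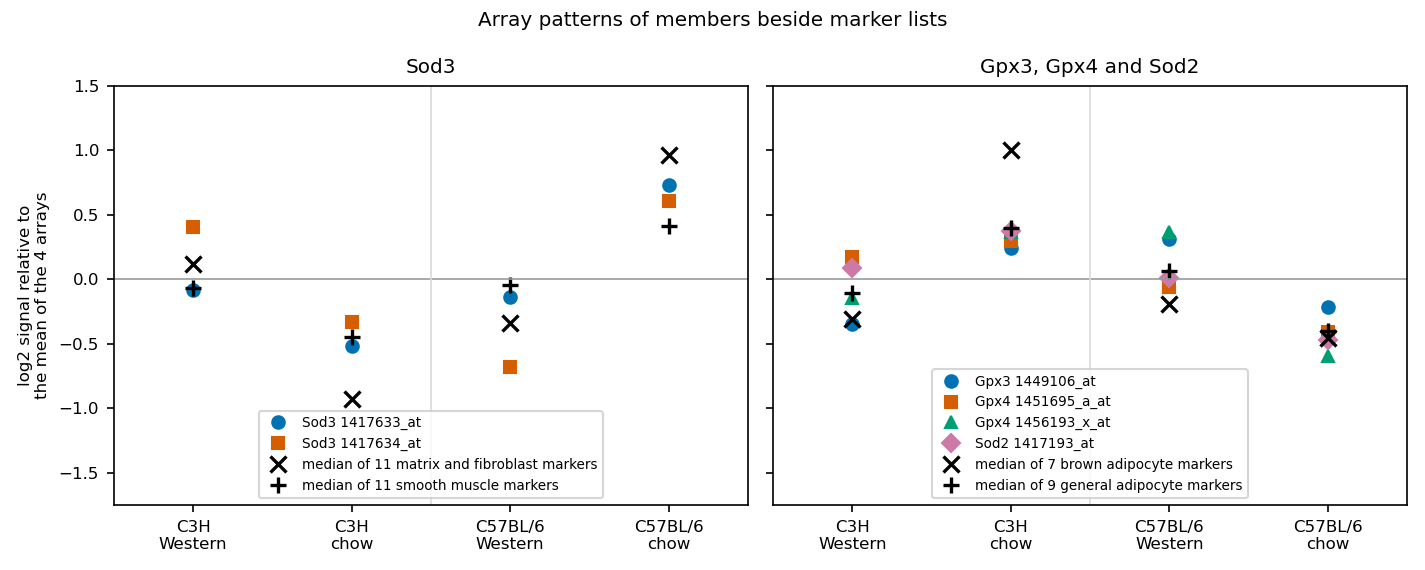
Log2 signal centred on the probe set's own mean (vertical axis) on each array, for Sod3 beside medians of matrix and smooth muscle markers, and for Gpx3, Gpx4 and a Sod2 probe set beside medians of fat markers. Sod3 and the matrix markers were highest on C57BL/6 chow, where the brighter Sod3 set stood at 0.74 and the markers at 0.96, and brown adipocyte markers reached 1.0 on C3H chow.

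The measured peroxiredoxin, Prdx2, a cytosolic enzyme that is abundant in red blood cells, had its widest strain difference in its dimmer probe set. The brighter set 1418506_a_at gave 1658 and 1166 in C3H on Western diet and chow, against 1115 and 1200 in C57BL/6 on Western diet and chow. C3H Western was the highest array, 1.49-fold above C57BL/6 on the same diet and 1.42-fold above C3H chow, and the other 3 arrays lay close together. Its strain term was log2 0.27 ± 0.31 (SE), with a limma adjusted p of 0.909.

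The further set 1430979_a_at had signals of 18.0 and 34.5 in C3H on Western diet and chow, both under the floor, against 213.4 and 247.5 in C57BL/6 on Western diet and chow. With the C3H arrays raised to the floor, C3H was lower by at least 2.55-fold on Western diet and by at least 2.96-fold on chow. This set entered the limma fit through the C57BL/6 arrays alone, so no fitted strain term is given for it. The suffix _a_at marks a set for several transcripts of 1 gene, and the sources used here do not say which of them this set binds.

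Most heart muscle markers moved with strain, as Gpx1 and this Prdx2 set did. All 12 had a probe set, and their summed signal was 1091 and 1265 in C3H on Western diet and chow, against 15284 and 19589 in C57BL/6 on Western diet and chow. None was at 0, though 7 of the 12 were under the floor on each C3H array, among them Tnnt2, Tnni3 and Ryr2 on both. Myh7 went the other way, with 148.6 and 163.4 in C3H on Western diet and chow, against 81.0 and 35.3, both under the floor, in C57BL/6. The part of heart muscle markers in the strain differences of Gpx1 and Prdx2 was not tested.

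Erythroid markers were mixed on C3H Western, the array where the brighter Prdx2 set was highest. Of 14 listed, 7 had a probe set, with a summed signal of 5014 and 1881 in C3H on Western diet and chow, and of 1907 and 1607 in C57BL/6. Alas2 and Fech, enzymes of heme synthesis, carried that sum. Alas2 had 2116 and 142.7 in C3H on Western diet and chow, against 303.5 and 180.3 in C57BL/6, and Fech had 2425 and 1049 in C3H, against 1341 and 994.5 in C57BL/6. The globin genes went the other way within C3H, with Hba-a2 at 143.9 and Hbb-b2 at 186.1 on Western diet, against 202.2 and 223.0 on chow. Over the 5 markers measured on both C3H arrays the median log2 difference between Western diet and chow was -0.19. On C3H Western 5 of the 7 were above the floor and Hba-a1 and Epb42 were under it, against 6 of 7 above it on C3H chow. None of the 7 was at 0, and their part in the Prdx2 signal was not tested.

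Between the strains on Western diet, 2 of 14 measured member probe sets were at least 1.5-fold higher in C3H (13.5% of 10956 probe sets in all) and 1 was lower (13.6%). They were sets of Sod2 and Sod3 and, lower, Gpx3. On chow, 4 of 14 were higher in C3H (21.1% of 10522 in all), both of Gpx4 and the brighter pair of Sod2. The 3 that were lower (20.1% in all) were both of Sod3 and the dim set of Sod2. The median log2 difference of the members was 0.06 on Western diet and 0.07 on chow, against 0.01 and 0.03 over all probe sets.

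For diet in C3H, 2 of 14 member sets were at least 1.5-fold higher on Western diet than on chow (17.5% of 10681 in all), the dim sets of Sod2 and Sod3, and 1 was lower, Gpx3 (17.1%). In C57BL/6, 1 of 15 was higher on Western diet, Gpx4 (13.9% of 10914 in all), and 2 were lower, both of Sod3 (14.1%). With equal array medians 4 sets were higher in each strain, against 2 lower in C57BL/6 and 0 lower in C3H, and the median of all probe sets in C3H moved to log2 0.11. The median log2 difference of the members was 0.09 in C3H and 0.09 in C57BL/6, against 0.00 over all probe sets in each. All 8 of these counts lay within 1.40 probe sets of the number that the share of all probe sets gives. Against probe sets of any brightness, the members thus differed about as often. Among sets above 1000 on every array, 9 were of members. For strain on chow, 4 of these were higher and 1 lower, against 35.04% of all 1136 either way. On Western diet 1 was higher and 1 lower (9.86%). For diet, 0 were higher and 1 lower in C3H (19.01%), and 1 was higher and 1 lower in C57BL/6 (13.91%). These gaps among bright sets were not tested.

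**Figure D3:**
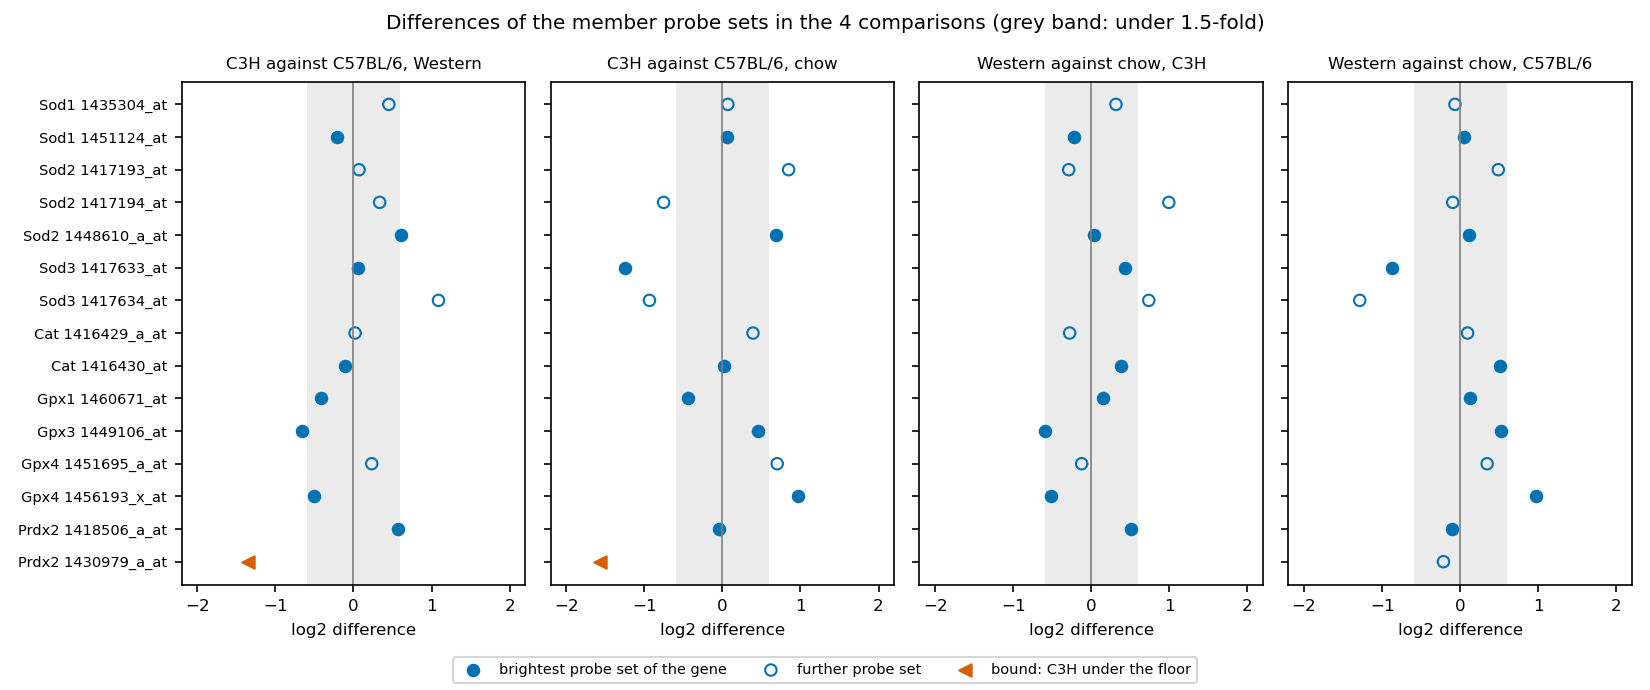
Log2 differences of the 15 member probe sets in the 4 comparisons, with filled points for the brightest set of a gene, open points for further sets and a triangle for a bound at the floor; the grey band is under 1.5-fold. Most points lie in the band, and Sod3 lies outside it on chow at -1.25 and -0.93.

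None of the 15 member probe sets passed in limma. For strain, 0 of 15 passed an adjusted p of 0.05 (0.382% of 14915 in all) and 1 had an unadjusted p under 0.05, the dimmer Prdx2 set, which was tested only because its C57BL/6 signals are above the floor. For diet, 0 of 15 passed (0% in all), and 0 had an unadjusted p under 0.05. Over the fit and its 8 alternatives the lowest adjusted p of any member was 0.573 to 0.859 for strain and 0.993 or more for diet. This fit has little power for differences of the size most members had, those slightly above 2-fold included. Missing the threshold therefore does not show that values did not differ.

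The sign of the strain difference often differed between the diets, among the members and among all probe sets. Some of these differences were small and no group has a replicate, so dependence of the sign on diet was not tested. Of 14 member sets above the floor on all arrays, 6 had the same sign on both diets, against 52.3% of 8740 probe sets in all. Of the genes, Sod2 and Gpx1 had the same sign by their brightest set. For diet, 3 of 14 had the same sign in both strains, against 45.1% in all. The difference between the strains' responses had a median size of log2 0.54 over the 14 members and 0.58 over all 8740. Among sets above 1000 on every array the medians were 0.61 for 9 member sets and 0.45 for all 1136, and this gap was not tested.

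**Figure D4:**
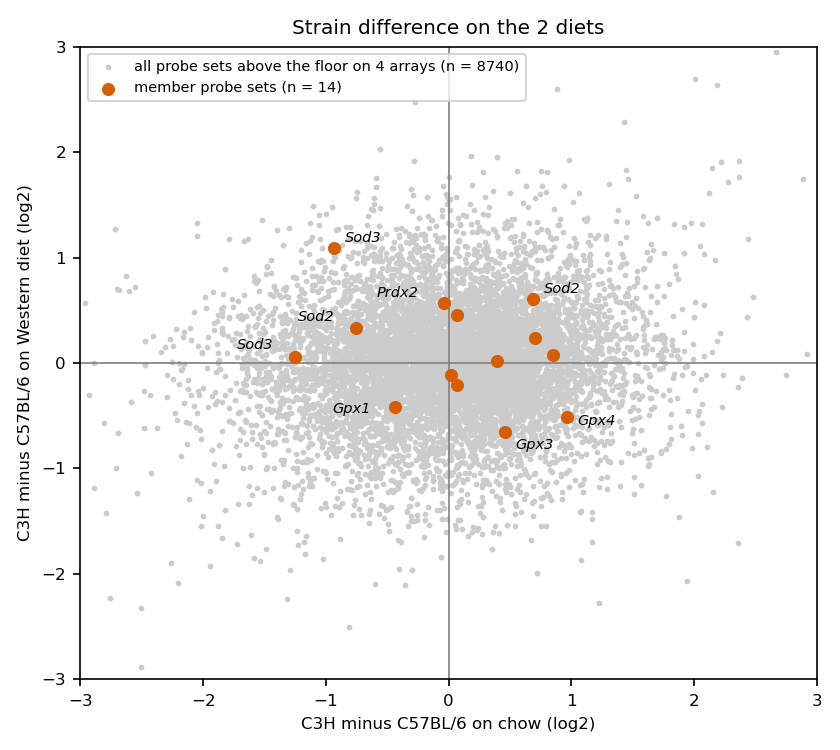
Log2 difference between C3H and C57BL/6 on chow (horizontal axis) and on Western diet (vertical axis) for 14 member probe sets over all 8740 sets above the floor on 4 arrays, of which 21 lie outside the axes. Member points fall inside the cloud of all probe sets, with Gpx1 low and the brightest Sod2 set high on both axes, and Gpx3 and the brighter Gpx4 set with opposite signs.

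Genes with the array pattern nearest to a member were sought among 5645 genes measured on all 4 arrays, as the root mean square of log2 differences between patterns centred on their means. Nearest to Sod3 were Serpinf1 (0.04), which encodes an antiangiogenic factor, Mylk (0.05), the kinase of the smooth muscle myosin light chain, and Loxl1 (0.06), an elastin crosslinking enzyme. Nearest to Gpx4 were Smpd1 (0.04), which encodes acid sphingomyelinase, the transcription factor gene Nfib (0.05) and the corepressor gene Tle1 (0.05). Nearest to Sod2 were Nrg4 (0.03), a secreted ligand made by brown fat, the interferon-inducible Trim30a (0.04) and Aktip (0.04). With 4 arrays such likeness describes these arrays only.

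The thioredoxin and glutathione systems supply the electrons that peroxidases use. Of 28 listed genes 26 had a probe set. Over all genes, with 1 probe set each, 17.1% were at least 1.5-fold higher on Western diet than on chow in C3H and 17.1% lower, and in C57BL/6 13.8% were higher and 14.3% lower. Between the strains, 13.3% of genes were at least 1.5-fold higher in C3H and 13.4% lower on Western diet, and 20.8% higher and 20.4% lower on chow. In the list, on Western diet against chow, 5 of 21 measured genes were at least 1.5-fold higher in C3H and 2 lower (median log2 0.10), and 7 of 23 were higher in C57BL/6 and 1 lower (median log2 0.19). Gclm, the modifier subunit of the enzyme that starts glutathione synthesis, had 344.1 and 133.1 in C3H on Western diet and chow, against 258.2 and 129.2 in C57BL/6. It was thus 2.59-fold higher on Western diet in C3H and 2.00-fold higher in C57BL/6. Glutathione reductase (Gsr), which restores reduced glutathione, was 3.21-fold higher on Western diet in C3H, at 690.2 against 215.0, and 2.22-fold higher in C3H than in C57BL/6 on Western diet. Txnrd2, the mitochondrial thioredoxin reductase, was 2.83-fold higher on Western diet in C57BL/6, at 295.0 against 104.3.

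Between the strains the same list was balanced, with 4 of 22 genes at least 1.5-fold higher in C3H and 5 lower on Western diet (median log2 -0.00), and 5 of 22 higher and 3 lower on chow (median log2 -0.00). Prdx4, the peroxiredoxin of the endoplasmic reticulum, was 2.78-fold lower in C3H on chow, at 368.0 against 1022. Gpx7, another peroxidase of that compartment, was 2.02-fold higher in C3H on Western diet, at 570.3 against 282.3. NRF2 pathway genes, of which 15 of 17 had a probe set, had a median log2 response of 0.29 in C3H (2 of 12 higher and 1 lower) and 0.40 in C57BL/6 (4 of 11 higher and 1 lower). Between the strains their medians were 0.08 on Western diet (2 of 14 higher and 2 lower) and -0.07 on chow (3 of 10 higher and 1 lower). The shares over all genes are those given with the thioredoxin and glutathione systems. The NRF2 list shares genes with that list, among them Gclm, Txnrd1 and Srxn1, so these lists are not independent. Its genes higher on Western diet in C3H were Gclm and Srxn1, both shared. In C57BL/6 they were Gclm, Srxn1 and Txnrd1, all shared, and Gsta4, which is not. Gsta4, a glutathione transferase that acts on lipid peroxidation products, was 5.40-fold higher in C3H on chow, at 1074 against 199.0, and 2.77-fold higher on Western diet than on chow in C57BL/6. Hmox1, heme oxygenase, was 2.26-fold lower in C3H on Western diet, at 100.7 against 227.4.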

How the data were processed

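RNA of whole aorta was measured on 4 arrays, 1 per group. Per the labels' protocols, Trizol was used for extraction, and biotin-labelled cRNA came from 8 ug of total RNA. Linear intensities of 22690 probe sets were deposited on a common scale: their means after trimming 2% at each end were 250.1 on each array, and their medians 110.3 to 128.1. The sources used here do not give the authors' background and summary steps.

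The 64 control probe sets were left out, and the rest quantile normalized on the log2 scale. A signal at or under the floor (40th percentile) is a bound. Names came from the platform's annotation, where 20380 probe sets name 1 gene, 691 several and 1555 none. Each gene is represented by the brightest of its probe sets (mean log2 signal). Counts use a 1.5-fold threshold where both arrays are above the floor. The additive fit used limma 3.58.1 in R 4.3.3, with eBayes, a mean trend and Benjamini-Hochberg adjustment over probe sets that 2 or more arrays measured above the floor. It was tested on simulated data, where it found none of the smallest changes, a minority of the next larger ones and all of the largest. The p-values of the fit set its terms against departures from additive strain and diet differences, pooled over probe sets. Such departures may be biological or technical. The rest used Python 3.11.15, numpy 2.4.6, pandas 2.3.3 and matplotlib 3.10.9.

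All members were named. Of the further lists, up to 3 genes per comparison with the largest difference were eligible, and 3 likeness genes were taken for each of the 3 members with the widest range. Members and lists were chosen with earlier results of these data known. Alternatives changed the scaling (none beyond the deposited one, equal medians, or cyclic loess), the floor (25th or 60th percentile, or none), the probe sets used, the fold threshold, and the filter and mean trend of limma.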

Additional observations from a re-analysis of the deposited data

Results flagged for a closer look

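With 1 array per group, 12 of the 14 member probe sets measured on all arrays had opposite directions, either of the diet difference in the strains (11 sets) or of the strain difference on the diets (8 sets). Among all 8740 probe sets measured on all arrays, 68.6% had 1 or both, with 54.8% opposite for diet and 47.4% for strain. Many of these differences are close to 0, the difference between the strains was not tested, and 4 arrays leave no residual for it. Values below are the log2 response to Western diet in C3H minus that in C57BL/6.

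The largest belonged to Sod3, with 2.02 by set 1417634_at and 1.31 by set 1417633_at. Gpx4 had -1.48 by set 1456193_x_at and -0.47 by set 1451695_a_at, and Gpx3 had -1.12. Sod2 had 1.09 by its dim set 1417194_at and -0.78 by set 1417193_at, so its probe sets disagreed in sign. Prdx2 had 0.61 by set 1418506_a_at. Sod1 had 0.38 by the dim set 1435304_at and -0.27 by the bright set 1451124_at. Cat had -0.37 by set 1416429_a_at and -0.13 by set 1416430_at.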

How the results depend on the processing

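No paired analysis was possible because each group has 1 array, and for the same reason no replicate could be left out. No member passed limma under any of the 8 alternatives to each term. The 96 log2 differences of the members' representative probe sets under another scaling moved by at most 0.35, and 7 changed sign. In the main setting these 7 were 0.06 or smaller in size, and under the other scaling they went down to -0.19. Counts at 1.5-fold are small and moved with the settings, and the cause was not tested beyond what each setting does by construction. For C3H against C57BL/6 on Western diet, the 2 higher sets became 1 with each other scaling (deposited, equal array medians and cyclic loess), with 1 probe set per gene and at 2-fold. The 1 lower set became 2 with equal array medians and with no floor, and 0 at 2-fold. The median became -0.16 with 1 probe set per gene, against 0.06. On chow, the 4 higher sets became 2 with 1 probe set per gene and 0 at 2-fold, and the 3 lower ones became 1 under both, 4 under a floor at the 25th percentile or none, and 2 under one at the 60th. For diet in C3H, the 2 higher sets became 4 with equal array medians, 1 under a floor raised to the 60th percentile, and 0 with 1 probe set per gene and at 2-fold. The 1 lower set became 2 with the deposited values, cyclic loess and no floor, and 0 with equal array medians and at 2-fold. For diet in C57BL/6, the 1 higher set became 4 with equal array medians and 0 at 2-fold, and the 2 lower sets became 1 with 1 probe set per gene and at 2-fold. The number of arrays limits every value, and 3 member probe sets, of Sod1, Sod2 and Prdx2, lay near or under the floor.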

Other observations

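Of 21 listed genes for enzymes that produce oxidants, 15 had a probe set, and 6 of these were above the floor on all arrays. Among them, Cyba, the p22phox subunit shared by NADPH oxidases, had 622.5 and 335.8 in C3H on Western diet and chow, against 447.9 and 671.1 in C57BL/6. Western diet went with a 1.85-fold higher signal in C3H and a log2 difference of -0.58 in C57BL/6, and on chow the signal was 2.00-fold lower in C3H than in C57BL/6. Nox4, the oxidase of smooth muscle and endothelium, had 754.7 and 358.1 in C3H on Western diet and chow, against 551.5 and 453.3 in C57BL/6, so that it was 2.11-fold higher on Western diet in C3H and 1.22-fold higher in C57BL/6. In the list, 2 of 7 measured genes were at least 1.5-fold higher on Western diet in C3H and 0 lower (median log2 0.46), and 2 of 8 were higher in C57BL/6 and 1 lower (median log2 0.35). Between the strains, 0 of 7 were higher in C3H and 1 lower on Western diet (median log2 0.10), and 2 of 7 were higher and 3 lower on chow (median log2 -0.54). The shares over all genes are those given with the thioredoxin and glutathione systems. Ncf1 and Nos2 were under the floor in C3H on both diets, and Nos2 was so in C57BL/6 too.

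Macrophage markers, of which 10 of 12 were above the floor on all arrays, had a median log2 response to Western diet of 0.75 in C3H (5 of 10 higher and 0 lower) and 0.41 in C57BL/6 (5 of 11 higher and 0 lower). Over all genes, with 1 probe set each, 17.1% were higher and 17.1% lower in C3H, and 13.8% higher and 14.3% lower in C57BL/6. The C3H response includes the C3H chow array, which stood apart.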
